A study of Arabidopsis thaliana with 6 samples.

Results

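*TEM1* (AT1G25560), *TEM2* (AT1G68840), *RAV1* (AT1G13260) and *EDF3* (AT3G25730) are 4 Arabidopsis genes for transcription factors of the RAV family. They were chosen by locus, as the *TEMPRANILLO* pair and its closest RAV relatives, and they are 4 of the 33602 genes in the count table and 4 of the 22182 genes that passed the filter on low counts. Wild type of the Columbia accession (Col-0) was compared with *prp40c-1* in the same background. The mutant line carries a homozygous T-DNA insertion in *PRP40C* (AT3G19840), which encodes a protein related to splicing factors, so that a single allele stands for the loss of the gene. Both genotypes were raised side by side for 2 weeks (10 to 14 days at harvest) on agarose plates under constant white light of 50 μmol per square metre and second at 22°C. Before growth the seeds of both genotypes were stratified, that is kept in the dark at 4°C, for 4 days. The plants received no other treatment, and RNA of entire seedlings was sequenced from 3 biological replicates of each genotype.

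RAV proteins combine an AP2 domain with a B3 domain and bind a bipartite DNA site. TEM1 and TEM2 repress flowering: they act on the florigen gene *FT*, which is activated by CONSTANS, and on *GA3OX1* and *GA3OX2*, which encode the enzymes that make bioactive gibberellin. TEM1 and TEM2 are therefore known as brakes on the juvenile to adult transition, and their loss gives early flowering. RAV1 is known as a negative regulator of growth that responds to cold and represses abscisic acid regulators, and transcripts of *RAV1* and *TEM2* are known to respond to touch. The same 4 genes are also listed as *EDF1*, *EDF2*, *EDF4* and *EDF3*, the ETHYLENE RESPONSE DNA BINDING FACTORS, named for their position downstream of EIN3 in ethylene signaling.

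Between 34200225 and 40919516 reads per library were assigned to genes. Levels are given as CPM, the counts after division by a scaled library size, and errors are SD over n = 3 libraries. A gene was called when the adjusted p of edgeR's quasi-likelihood test was below 0.05 and the absolute log2 fold change above 0.58. By this rule 813 of the tested genes were called (3.67%), 624 of them higher (2.81%) and 189 lower (0.852%) in *prp40c-1*. The targeted gene *PRP40C* had 947, 1068 and 917 counts among wild-type libraries, against 451, 513 and 429 in the mutant. Its log2 fold change was -0.97 (edgeR adjusted p = 2.1e-05), so reads of the gene remained in the mutant. By RT-PCR across the insertion, the study reports strongly reduced full-length mRNA. Counts per gene do not show whether the remaining reads come from full-length transcript. The label of whole seedlings was checked with marker genes. The summed level of 4 leaf markers was 38810 to 40010 CPM in wild type and 38210 to 41540 in *prp40c-1*, and that of 4 root markers was 2152 to 2266 and 2261 to 2530 CPM, with 0 markers of either list called (edgeR's quasi-likelihood test). Of the leaf markers, 3 of 4 were lower in each *prp40c-1* library than in any wild-type library, against 13.5% of all tested genes. Log2 fold changes were -0.16 for *RBCS1A* (edgeR adjusted p = 0.0957), -0.33 for *CA1* (0.00898) and -0.25 for *RCA* (0.0334). *CAB1*, the leaf marker with the highest level, was at 0.17 (edgeR adjusted p = 0.142). Flower markers summed to no more than 1.21 CPM and seed storage markers to no more than 0.963 CPM in any library.

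The coding regions of the 4 genes are shown by the stretches that tell the TEM genes apart, since closely related genes can exchange reads. On TAIR10.1 (RefSeq), each of the 4 has 1 coding exon, of 1086 bp in *TEM1*, 1059 bp in *TEM2*, 1035 bp in *RAV1* and 1002 bp in *EDF3*. Aligned coding positions were 80.7% identical between *TEM1* and *TEM2* and 82.3% identical between *RAV1* and *EDF3*, against 74.3 to 76.6% for the other pairings. Stretches shared without a mismatch were searched over the whole gene spans used for the counts, which reach beyond the coding region. The longest of any pair was 35 bases, found in *RAV1* and *EDF3*, and that of the TEM pair was 32 bases. The study's own qPCR primers for the TEM genes fall in the coding region. Each primer matched the coding region of its own gene at 1 place. Below, the forward primers are given with the aligned stretch of the other TEM gene, in which capitals mark the bases that differ from the primer.
TEM1 forward primer, chr1:8982027-8982050, minus strand: tcagactgtggttaggctattcgg
TEM2 at the same place, chr1:25881341-25881364, plus strand: tcagGTGgtggttCggctTttcgg
TEM2 forward primer, chr1:25881348-25881369, plus strand: gtggttcggcttttcggagttg
TEM1 at the same place, chr1:8982022-8982043, minus strand: gtggttAggctAttcggagtCA
The *TEM1* primer thus met 5 mismatches in *TEM2* and the *TEM2* primer met 4 in *TEM1*. The reverse primers were less even: that of *TEM2* met 1 mismatch over 23 bases in *TEM1* (chr1:8981911-8981933), and that of *TEM1* could be aligned to *TEM2* only with a gap. The sources used here do not give how reads matching several genes were counted. Counts of these genes may hold a few reads of each other, and the part of such reads was not tested.

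The upstream regions are shown because 3 of the 4 genes moved together, as described below. Each line holds the 250 bases before the transcript start of the RefSeq gene model. Capitals mark matches, on either strand, to CAACA and CACCTG, the sites of the AP2 and B3 domains of RAV proteins, to TTGAC, the W-box core bound by WRKY factors, and to GAANCTTCCT, a run shared by the 4 genes.
TEM1, chr1:8983315-8983564, minus strand: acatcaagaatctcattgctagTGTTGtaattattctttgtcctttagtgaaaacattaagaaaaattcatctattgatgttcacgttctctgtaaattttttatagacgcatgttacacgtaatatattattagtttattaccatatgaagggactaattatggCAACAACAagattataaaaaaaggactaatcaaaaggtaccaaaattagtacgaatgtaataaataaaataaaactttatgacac
TEM2, chr1:25879905-25880154, plus strand: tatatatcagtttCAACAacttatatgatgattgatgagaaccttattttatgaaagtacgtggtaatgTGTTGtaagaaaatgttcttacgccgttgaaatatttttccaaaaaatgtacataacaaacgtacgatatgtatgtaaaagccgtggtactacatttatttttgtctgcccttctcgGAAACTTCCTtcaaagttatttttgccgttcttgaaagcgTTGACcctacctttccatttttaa
RAV1, chr1:4541918-4542167, plus strand: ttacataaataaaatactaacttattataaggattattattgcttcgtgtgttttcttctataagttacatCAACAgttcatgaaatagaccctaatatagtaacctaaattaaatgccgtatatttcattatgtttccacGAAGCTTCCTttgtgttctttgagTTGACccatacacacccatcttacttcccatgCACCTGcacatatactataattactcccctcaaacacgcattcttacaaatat
EDF3, chr3:9396022-9396271, plus strand: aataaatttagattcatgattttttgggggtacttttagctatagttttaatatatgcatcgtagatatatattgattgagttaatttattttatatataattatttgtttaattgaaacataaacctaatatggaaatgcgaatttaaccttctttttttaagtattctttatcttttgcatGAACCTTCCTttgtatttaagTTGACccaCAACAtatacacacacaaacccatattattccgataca
Motifs were counted in 27443 promoters over 300 bases, from 250 before to 50 after the start. CAACA was found 3 times in *TEM1*, 2 times in *TEM2*, and 1 time each in *RAV1* and *EDF3*, and 54.2% of all promoters hold it. CACCTG was found in *RAV1* only, at position -53 from the start (3.31% of promoters). TTGAC was found in *TEM2*, *RAV1* and *EDF3* and not in the *TEM1* window (50.5% of promoters), and 1 of the 2 matches of *TEM2*, at position 15, lies after the start. The G-box CACGTG (7.68%), the evening element AAATATCT (5.65%) and CGCGT (8.70%), a core bound by calmodulin-binding activators, were found in none of the 4 windows.

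The shared run is the longest, at 10 bases with 1 free position, that all 4 windows hold on the gene strand. It was searched for after these sequences had been read, so it was chosen with them in view. It is given here with 10 bases on either side, the run in capitals.
TEM1, chr1:8983266-8983295, minus strand: ctcttcccacGAAACTTCCTctacaaaaca
TEM2, chr1:25880081-25880110, plus strand: gcccttctcgGAAACTTCCTtcaaagttat
RAV1, chr1:4542049-4542078, plus strand: atgtttccacGAAGCTTCCTttgtgttctt
EDF3, chr3:9396195-9396224, plus strand: tcttttgcatGAACCTTCCTttgtatttaa
In *TEM1* the run lies after the RefSeq start, at position 30, and in the other genes before it, at -64, -109 and -67. The gene models of the counts start elsewhere for *TEM1* (8983041, against 8983314 in RefSeq) and *TEM2* (25880323 against 25880155). The same holds for *EDF3* (9396420 against 9396272). By the start used for the counts, the run of *TEM1* lies before the start as well. The letters of the run were the same in *TEM1* and *TEM2* and differed from these at 1 base in *RAV1* and in *EDF3*. In all, 100 promoters (0.364%) hold it on either strand. Of the 96 genes outside the family that hold it, 75 were tested, and 9 were called higher and 1 lower (edgeR's quasi-likelihood test), where 2.81% and 0.852% of all tested genes were. They had a median log2 fold change of 0.03 against -0.0009 over all tested genes. *EDF3* holds the run because the search asked for it in all 4 windows. The level of *EDF3* did not move with that of the other 3 genes (below). The part of the run in these levels was not tested.

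The level of *TEM1* (chromosome 1, 8981677 to 8983041) was higher in every *prp40c-1* library than in any wild-type library. The wild-type libraries had 1703, 1883 and 2834 counts, or 44.3, 49.5 and 69.9 CPM. The *prp40c-1* libraries had 4196, 4100 and 4294 counts, or 110.1, 112 and 127 CPM. The third wild-type library stood above the other wild-type libraries, at 1.49 times their mean, whereas the mutant libraries lay close together. The mean rose from 54.6 ± 13.6 CPM (SD, n = 3) to 116 ± 9.47 CPM (SD, n = 3), a 2.13-fold increase. On the log2 scale this was 1.09, with an SE of 0.125, a 95% interval of 0.83 to 1.36 and an adjusted p of 3.0e-05 by edgeR's quasi-likelihood test. In RNA of whole seedlings, more cells of a type that expresses a gene and more RNA per cell cannot be told apart, and this holds for each gene described here.

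*TEM2* (chromosome 1, 25880323 to 25882222) behaved in the same way and at a higher level. It had 2704, 3058 and 4531 counts in wild type, or 70.3, 80.4 and 112 CPM, and again the third wild-type library was the highest. In *prp40c-1* it had 7313, 7319 and 7617 counts, or 192, 199.5 and 226 CPM. The genotypes did not overlap, and the lowest mutant library lay 1.72 times above the highest wild-type library. The mean rose from 87.5 ± 21.7 to 206 ± 17.8 CPM (SD, n = 3), or 2.35-fold (log2 fold change 1.23, SE 0.126, 95% interval 0.97 to 1.50, edgeR adjusted p = 1.1e-05).

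*RAV1* (chromosome 1, 4542168 to 4543742), the relative outside the TEM pair that is known as a growth repressor, rose by a similar factor. Its counts were 906, 1273 and 1719 in wild type, or 23.5, 33.5 and 42.4 CPM, and 2556, 2840 and 2727 in *prp40c-1*, or 67.1, 77.4 and 80.8 CPM. Wild-type libraries were more scattered for *RAV1* than for the TEM genes, with a coefficient of variation of 28.5% against 24.9% for *TEM1* and 24.8% for *TEM2*, but the genotypes did not overlap here either. The mean rose from 33.1 ± 9.45 to 75.1 ± 7.15 CPM (SD, n = 3), or 2.26-fold (log2 fold change 1.18, SE 0.146, 95% interval 0.87 to 1.49, edgeR adjusted p = 6.0e-05).

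*EDF3* (chromosome 3, 9396420 to 9397747), which unlike the others is not on chromosome 1, was weakly expressed and gave no call. It had 202, 200 and 187 counts in wild type, or 5.25, 5.26 and 4.62 CPM, and 179, 187 and 169 in *prp40c-1*, or 4.70, 5.10 and 5.01 CPM. The values of both genotypes overlapped. The means were 5.04 ± 0.368 and 4.94 ± 0.209 CPM (SD, n = 3), and the log2 fold change was -0.03 (SE 0.156, 95% interval -0.36 to 0.30, edgeR adjusted p = 0.935). The upper end of this interval lies below the lower ends of the intervals of *TEM1*, *TEM2* and *RAV1*, so the depth of *EDF3* was enough to separate its change from theirs.

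**Figure D1:**
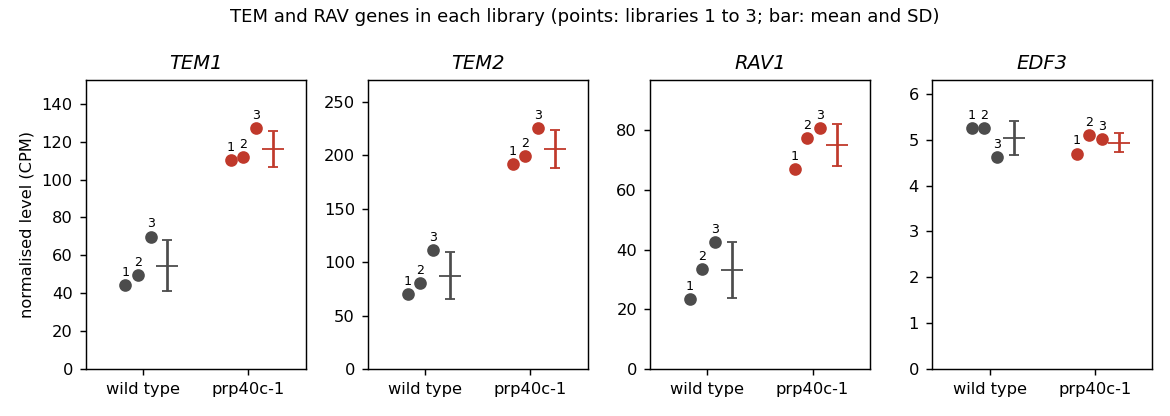
Level of each gene in CPM (y axis, a separate scale from 0 for each gene) in the 3 wild-type and 3 *prp40c-1* libraries, numbered points, with the mean and SD beside them. For *TEM1*, *TEM2* and *RAV1* every mutant point lies above every wild-type point and wild-type library 3 is the highest of its group, while the *EDF3* points of both genotypes lie between 4.62 and 5.26 CPM.

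Of the 4 genes, 3 were called higher and 0 lower in *prp40c-1*, where 2.81% of all tested genes were called higher. Groups did not overlap for 3 of the 4, against 15.5% of all tested genes with each *prp40c-1* library above each wild-type library. The call of *TEM1*, *TEM2* and *RAV1* was made under each of 13 other settings of the analysis and library subsets. With single libraries left out the log2 fold change ran from 0.96 to 1.31 for *TEM1*, from 1.09 to 1.45 for *TEM2* and from 0.98 to 1.40 for *RAV1*, and the largest edgeR adjusted p over these 3 genes was 7.8e-04. *EDF3* was called under none of the 13.

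Ratios between the genes within a library do not depend on library size and compare the TEM pair with its relatives directly. For *TEM1* against *TEM2* the log2 ratio of counts stood at -0.67, -0.70 and -0.68 in wild type, and at -0.80, -0.84 and -0.83 in *prp40c-1*. The pair thus kept to a narrow ratio within each genotype, with SDs of 0.0167 and 0.0179 (n = 3), far less than either gene varied alone. The difference was -0.14 on the log2 scale, without overlap between the genotypes (exact two-sided permutation p = 0.1, the smallest that 3 against 3 libraries allow, and 0.15 after Benjamini-Hochberg adjustment over the 6 pairs of genes). The estimate of the increase was thus larger for *TEM2* than for *TEM1*, by a difference at the smallest p that this permutation test can give.

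The ratios of the TEM genes to *RAV1* overlapped between the genotypes. The log2 ratio of *TEM1* to *RAV1* went from 0.73 ± 0.173 to 0.63 ± 0.0946 (SD, n = 3, difference -0.10, exact permutation p = 0.4, adjusted 0.48). With single libraries left out this difference ran from -0.18 without wild type replicate 2 to -0.0096 without wild type replicate 1. That of *TEM2* to *RAV1* was 1.41 ± 0.157 and 1.45 ± 0.0790 (SD, n = 3, difference 0.04, exact permutation p = 0.7, adjusted 0.7). Neither p shows that these genes responded alike. Against *EDF3* the other 3 genes were shifted without overlap, and the log2 ratio was higher in *prp40c-1* by 1.15 for *TEM1*, 1.29 for *TEM2* and 1.24 for *RAV1* (exact permutation p = 0.1 each, adjusted 0.15). The ratios without overlap were thus those against *EDF3* and, by a small margin, that within the TEM pair.

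**Figure D2:**
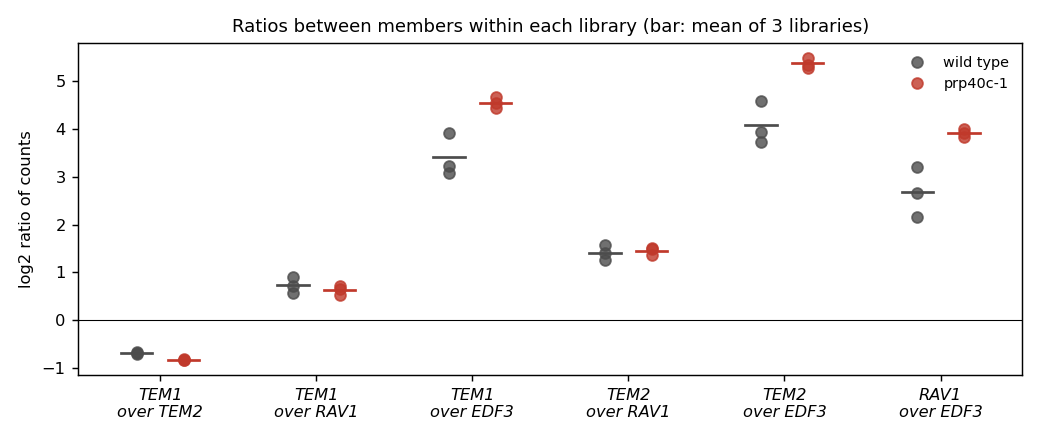
Log2 ratio of counts within each library (y axis) for the 6 pairs of genes, with 1 point per library and a bar at the mean of the 3 libraries of a genotype. The 3 ratios over *EDF3* lie higher in *prp40c-1* without overlap, the *TEM1* over *TEM2* ratio is tightly grouped and slightly lower, from -0.68 to -0.82, and the ratios over *RAV1* overlap.

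Levels can be ranked between genes only per length, as RPKM, the CPM divided by the exonic length in kilobases. In wild type *TEM2* was at 52.4 ± 12.97, *TEM1* at 40.0 ± 9.94, *RAV1* at 21.04 ± 5.997 and *EDF3* at 3.80 ± 0.277 RPKM (SD, n = 3). In *prp40c-1* the order was the same, with 123 ± 10.6, 85.3 ± 6.94, 47.7 ± 4.54 and 3.72 ± 0.157 RPKM (SD, n = 3). In wild type the neighbours *TEM2* and *TEM1* overlapped in their spread over libraries, and the genes further down the order did not. In *prp40c-1* neighbouring genes did not overlap at any step of the order. With the full gene length in place of the exonic length given in the table, *TEM2* fell to 46.1 RPKM in wild type and 108 RPKM in *prp40c-1* and remained first.

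In the wild-type group the 3 genes that rose ranked the libraries alike. Relative to the wild-type mean, *TEM1* was at 0.811, 0.907 and 1.28 in wild-type libraries 1 to 3, *TEM2* at 0.803, 0.919 and 1.28, and *RAV1* at 0.710, 1.01 and 1.28. *EDF3* was at 1.04, 1.04 and 0.916 and did not follow them. The mutant libraries were at 2.02 to 2.33 for *TEM1*, 2.19 to 2.58 for *TEM2* and 2.02 to 2.44 for *RAV1*, with library 3 the highest in each case. A list of 10 genes known for rapid induction by touch or wounding was read beside these values. Summed over the list, the level was 199, 240.1 and 258 CPM in wild-type libraries 1 to 3. It was 813, 987 and 1183 CPM in *prp40c-1* libraries 1 to 3. The sum thus ranked the libraries as *TEM2* did, but not every gene of the list did so. Of the 10 genes, 8 were called higher and 0 lower (edgeR's quasi-likelihood test), where 2.81% and 0.852% of all tested genes were. Their median log2 fold change was 2.07. The 8 were *TCH2* (0.94), *TCH3* (2.17), *TCH4* (2.78), *WRKY40* (3.09), *STZ* (1.94), *ERF5* (1.97), *ERF6* (2.46) and *CML38* (2.44). Wild-type library 3 was the highest of its group for *TCH2*, *TCH3*, *TCH4* and *ERF5*. It was not the highest for *WRKY40* (4.70, 8.23 and 7.18 CPM), *STZ*, *ERF6* or *CML38* (1.64, 1.18 and 1.28 CPM). *TCH4*, which encodes an enzyme that remodels xyloglucan in the cell wall, went from 44.1 ± 10.8 to 302.5 ± 46.4 CPM (SD, n = 3). The part of touch or handling in the levels of the TEM and RAV genes was not tested. The summed ethylene, leaf marker and root marker lists lay between 0.965 and 1.14 of their wild-type mean in every library.

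**Figure D3:**
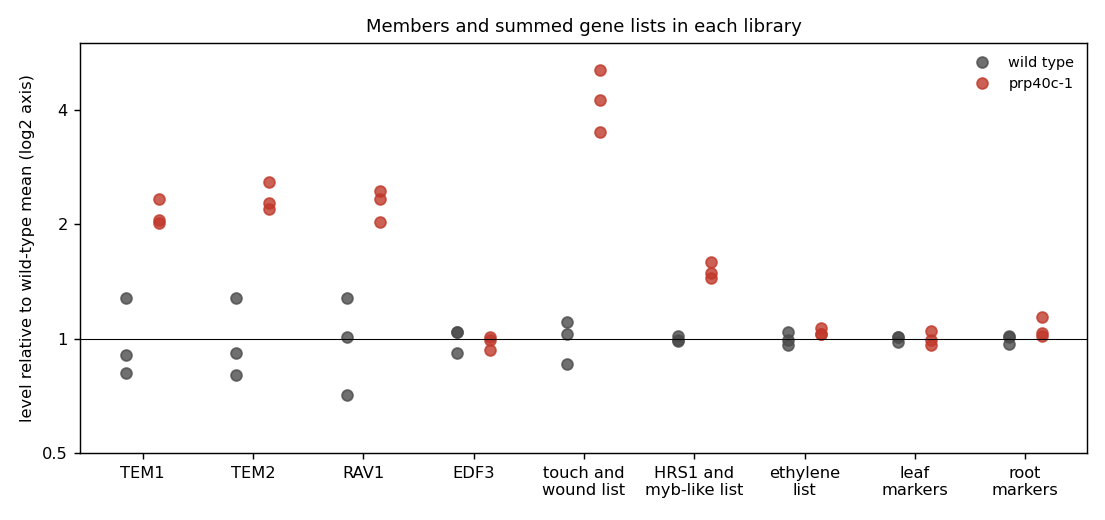
Level of each gene, and of summed gene lists, relative to the wild-type mean (y axis, log2-spaced, 1 is the wild-type mean), with 1 point per library. *TEM1*, *TEM2* and *RAV1* reach 2.02 to 2.58 in *prp40c-1* and the touch and wound list 3.50 to 5.09, whereas *EDF3*, the ethylene list and the tissue markers stay near 1.

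The genes whose log2 CPM followed the mean profile of *TEM1* and *TEM2* most closely over the 6 libraries were ranked by Pearson's r among 22180 tested genes. With 6 libraries in 2 genotypes r holds both the step between genotypes and the scatter within them, so it is given as a description. AT1G80440 (*KMD1*), whose F-box protein targets cytokinin response regulators and phenylpropanoid enzymes for degradation, came first with r = 0.999. It rose from 99.97 to 181 CPM (log2 fold change 0.86, edgeR adjusted p = 1.9e-05). AT5G22920 (*RZPF34*), a RING zinc-finger gene linked to stomatal aperture, was next with r = 0.999 and rose from 86.8 to 203 CPM (log2 fold change 1.22, edgeR adjusted p = 1.2e-05). AT5G19190, annotated as an uncharacterized protein, rose too (0.86, edgeR adjusted p = 2.1e-05, r = 0.997). AT4G32670, a RING/FYVE/PHD zinc-finger gene, and AT4G37560, an acetamidase/formamidase family gene, followed the profile (r = 0.998 and 0.997) with smaller log2 fold changes of 0.18 and 0.40 that were not called (edgeR adjusted p = 0.272 and 0.00898). *RAV1* ranked 64 (r = 0.987) and *EDF3* 15482 (r = -0.42).

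Among the relatives listed in this paragraph, none that could be tested was called. The other genes with an AP2 and a B3 domain were too low for a test: AT1G50680 had 2 counts in 1 wild-type library and 0 in the other libraries, and AT1G51120 had 0 in all 6. Of the NGATHA genes, B3 factors that shape leaves and the gynoecium, and their NGATHA-like relatives, 7 of 7 were tested. Of these 0 were called, where 3.67% of all tested genes were, and the median log2 fold change was -0.27. For 3 of the 7, *NGA1*, AT3G11580 and *DPA4*, each *prp40c-1* library lay below each wild-type library, against 13.5% of all tested genes. *NGA1* had a log2 fold change of -0.27 (edgeR adjusted p = 0.132), *NGA2* of 0.09, *NGA3* of -0.07 and *NGA4* of -0.41. *ABS2* had one of 0.15, AT3G11580 of -0.32, and *DPA4*, with the largest value of the list, of -0.66 (edgeR adjusted p = 0.244). The intervals of *NGA4* and *DPA4* were wide, since both are weakly expressed, and reached past -1 on the log2 scale.

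**Figure D4:**
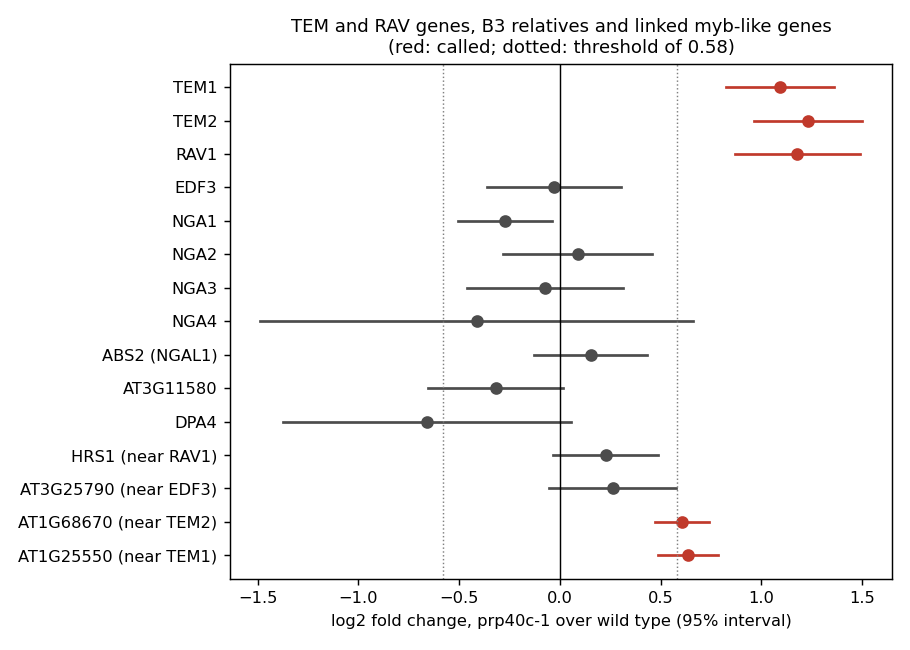
Log2 fold change of *prp40c-1* over wild type (x axis) with 95% intervals from edgeR for the 4 TEM and RAV genes, the NGATHA and NGATHA-like genes and *HRS1* with 3 myb-like genes. Red marks called genes and dotted lines the threshold of 0.58. *TEM1*, *TEM2* and *RAV1* lie at 1.09 to 1.23 and the myb-like genes AT1G25550 and AT1G68670 at 0.64 and 0.61, while 0 of the 7 NGATHA genes are called.

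Each of the 4 genes has a gene annotated as a myb-like transcription factor at 3583 to 96246 bp, 1 of which is *HRS1*, a gene named for its part in the root response to low phosphate. AT1G25550, the nearest gene to *TEM1* on the lower-coordinate side at 3583 bp, rose. It had 4542, 4367 and 5036 counts in wild type and 6643, 6664 and 6714 in *prp40c-1*, or 119 ± 4.83 and 185 ± 12.7 CPM (SD, n = 3), without overlap. Its log2 fold change was 0.64 (SE 0.0694, edgeR adjusted p = 1.9e-05) and 0.58 without *prp40c-1* replicate 3, just under the threshold. AT1G68670, 96246 bp and 21 genes from *TEM2*, rose from 49.6 ± 0.507 to 75.4 ± 1.49 CPM (SD, n = 3), or 0.61 on the log2 scale (SE 0.0638, edgeR adjusted p = 1.3e-05). *HRS1*, 13149 bp and 3 genes from *RAV1*, had a log2 fold change of 0.23 (edgeR adjusted p = 0.277) and AT3G25790, 15379 bp and 5 genes from *EDF3*, one of 0.26 (edgeR adjusted p = 0.301). Their 95% intervals, up to 0.49 and 0.58, overlapped those of AT1G25550 (from 0.49) and AT1G68670 (from 0.47), and the difference between these genes was not tested. Among wild-type libraries, library 3 was the highest for AT1G25550 (118, 115 and 124 CPM), as it was for the TEM genes, but by a smaller margin. For AT1G68670 the wild-type libraries (49.0, 49.7 and 50.0 CPM) lay too close together to be ranked.

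None of the other neighbours that were tested was called. On the other side of *TEM1*, AT1G25570 at 8784 bp had a log2 fold change of 0.03 (edgeR adjusted p = 0.885). Beside *TEM2*, *STN7*, the kinase of photosynthetic state transitions, at 4772 bp was higher in each *prp40c-1* library than in any wild-type library, at 113 ± 9.69 against 95.1 ± 1.71 CPM (SD, n = 3, log2 fold change 0.25, edgeR adjusted p = 0.0318, below the fold threshold). AT1G68845 at 211 bp had 0 to 7 counts per library and was not tested. Beside *RAV1*, *GATL3* at 12104 bp was at 17.7, 20.4 and 21.7 CPM in wild type and at 22.8, 24.4 and 27.4 CPM in *prp40c-1*, also without overlap (log2 fold change 0.32, edgeR adjusted p = 0.0574). *MAP1C*, a methionine aminopeptidase gene at 1210 bp from *RAV1*, had a log2 fold change of -0.39 (edgeR adjusted p = 0.0104, below the fold threshold), opposite to *RAV1*. Beside *EDF3*, AT3G25727 had 0 counts and was not tested, and *MAP1B* at 38 bp had a log2 fold change of 0.19 (edgeR adjusted p = 0.344). No annotated gene of the table overlaps any of the 4.

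Genes reported as targets of the TEM proteins were read beside the rise of the pair. Of 5 flowering and gibberellin targets 4 were tested, 1 was called lower and 0 higher, where 0.852% and 2.81% of all tested genes were. *GA3OX2*, which encodes a gibberellin 3-oxidase, had 158, 143 and 93 counts in wild type and 80, 74 and 52 in *prp40c-1*. All 3 mutant libraries lay below all wild-type libraries. The mean went from 3.39 ± 0.961 to 1.89 ± 0.301 CPM (SD, n = 3; log2 fold change -0.84, SE 0.257, edgeR adjusted p = 0.0471). The call was lost without any single library other than wild type replicate 3, and was weakest when wild type replicate 1 was left out (log2 fold change -0.68). Over the 13 alternatives the edgeR or DESeq2 adjusted p of *GA3OX2* ran from 0.011 to 0.189. *GA3OX1* had a log2 fold change of 0.12 (edgeR adjusted p = 0.78). *FT*, the florigen gene, had 18, 32 and 8 counts in wild type and 5, 24 and 8 in *prp40c-1*, too few to show a change of the size of the TEM genes (log2 fold change -0.55, edgeR adjusted p = 0.657), and its sign depended on the library left out. *TSF*, its close relative, had 0, 12 and 10 counts against 8, 2 and 3 and was not tested. *SOC1*, a floral integrator, had a log2 fold change of 0.40 (edgeR adjusted p = 0.0115), below the fold threshold and upward.

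Trichome regulators that the TEM proteins are reported to repress gave 0 calls among 5 tested, where 3.67% of all tested genes were called. Their median log2 fold change was 0.01. The values were 0.81 for *GL1* (edgeR adjusted p = 0.162), 0.01 for *GL2*, -0.25 for *GL3*, -0.42 for *EGL3* (edgeR adjusted p = 0.0768) and 0.07 for *TTG1*. Of the abscisic acid regulators reported as RAV1 targets, *ABI3*, a B3 factor of seed maturation, had 78, 63 and 38 counts in wild type and 13, 24 and 6 in *prp40c-1*. Its level fell from 1.54 ± 0.554 to 0.391 ± 0.242 CPM (SD, n = 3), with a log2 fold change of -1.96, an SE of 0.468 and an edgeR adjusted p of 0.0133. The call was lost in fits lacking wild type replicate 1 (edgeR adjusted p = 0.0728) or lacking *prp40c-1* replicate 3 (0.0649), within a range of 2.5e-04 to 0.0728 over the alternatives. *ABI5* had a log2 fold change of -0.33 (edgeR adjusted p = 0.382) and *ABI4* had 0 counts in all libraries.

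**Figure D5:**
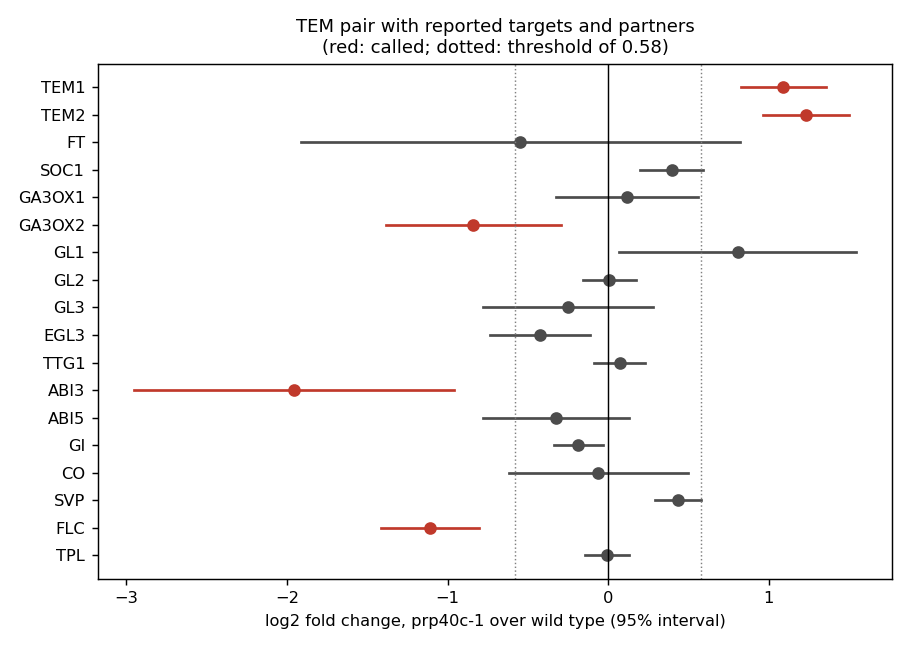
Log2 fold change of *prp40c-1* over wild type (x axis) with 95% intervals from edgeR for the TEM pair, reported targets of TEM and RAV1 proteins, and partners. Red marks called genes and dotted lines the threshold of 0.58. *GA3OX2* (-0.84), *ABI3* (-1.96) and *FLC* (-1.11) are the called genes below 0, and the interval of *FT* spans 0.

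Of 5 genes for partners of TEM1 and TEM2 and for other floral regulators, 1 was called lower and 0 higher. Over all tested genes, 0.852% were called lower and 2.81% higher. *FLC*, a MADS-box repressor of flowering, had 409, 335 and 395 counts in wild type and 157, 161 and 170 in *prp40c-1*. It fell from 9.73 ± 0.911 to 4.52 ± 0.472 CPM (SD, n = 3), with a log2 fold change of -1.11, an SE of 0.144 and an edgeR adjusted p of 1.0e-04, and was called under all 13 alternatives. *SVP*, a floral repressor, was at 52.2 ± 0.694 and 70.6 ± 3.45 CPM (SD, n = 3, log2 fold change 0.44, edgeR adjusted p = 4.5e-04), below the fold threshold. *GI* had a log2 fold change of -0.18 (edgeR adjusted p = 0.115), *CO*, the activator that TEM proteins counter at *FT*, of -0.06 (edgeR adjusted p = 0.918), and the corepressor gene *TPL* of -0.01. Among genes for floral repressors the TEM pair was thus higher and *FLC* lower in the same *prp40c-1* libraries.

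Ethylene signaling genes gave the background for the EDF name of the family. Of 14 tested genes, from receptors to EIN3 and its F-box proteins, 1 was called higher and 0 lower. Over all tested genes, 2.81% were called higher and 0.852% lower. The list had a median log2 fold change of 0.13. The receptor genes *ETR1*, *ETR2*, *ERS1*, *ERS2* and *EIN4* gave no call, and *EIN3* and *EBF2* had log2 fold changes of 0.13 and 0.13. *EIL1* was at 0.32 (edgeR adjusted p = 0.00348) and *EBF1* at -0.21 (edgeR adjusted p = 0.0463), both below the fold threshold. *ERF1*, a direct EIN3 target, had 2, 3 and 4 counts in wild type and 19, 16 and 8 in *prp40c-1* (log2 fold change 2.31, edgeR adjusted p = 0.0387). This call was lost with each single library left out in turn, with an edgeR adjusted p of up to 0.127.

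A list of 10 clock genes was tested because the TEM and RAV genes are known to cycle. *CCA1* and *LHY* were called higher and *PRR9* lower (edgeR's quasi-likelihood test), with a median log2 fold change of 0.07. Over all tested genes, 2.81% were called higher and 0.852% lower. The morning gene *CCA1* was at 44.9, 39.0 and 30.1 CPM in wild type and at 69.6, 65.6 and 72.9 CPM in *prp40c-1* (log2 fold change 0.87, edgeR adjusted p = 7.1e-05). Its highest wild-type library was the lowest of *TEM1* and *TEM2*, although all 3 genes rose in the mutant. *LHY* had a log2 fold change of 0.62 (edgeR adjusted p = 5.9e-04), but only 0.52 in the fit lacking wild type replicate 3 and 0.55 in that lacking *prp40c-1* replicate 3, under the fold threshold. *PRR9* had one of -0.63 (edgeR adjusted p = 0.0285), and its call was kept in 1 of the 6 fits with a library left out. The hour of harvest is not in the labels, and its part in these levels was not tested.

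*TEM2* is the only one of the 4 genes with an intron in the junction counts, and RefSeq gives it a transcript with 1 exon and a transcript with 2 exons. The first boundary was crossed by 2, 5 and 9 reads in wild type and by 15, 17 and 15 in *prp40c-1*. At the second boundary 1 read was found in wild-type library 1 and 0 in the other libraries, and no spliced count is listed for the intron. Per 1000 reads of the gene, boundary reads went from 1.58 ± 0.441 to 2.11 ± 0.185 (SD, n = 3) with overlap (difference 0.537 in *prp40c-1* over wild type, exact two-sided permutation p = 0.2). With so few reads, a change in the splicing of *TEM2* was not detectable at this depth.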

How the data were processed

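RNA-seq of poly(A) RNA was carried out on whole Col-0 and *prp40c-1* seedlings, with 3 libraries per genotype. The authors mapped the paired reads to TAIR10 with TopHat2 version 2.1.1, used SAMtools version 1.3, and deposited raw counts per gene and per splice junction from their own R scripts, with no normalization. Per the labels the 3 libraries of a genotype are biological samples, and the replicate numbers are not tied to a shared day or batch. Strand and the treatment of reads with several matches are not described in the sources used here.

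The count tables were analysed in R 4.3.3 with edgeR 4.0.16. Genes averaging 10 counts or more in either genotype entered 1 quasi-likelihood fit with TMM library sizes (factors 0.987 to 1.01), and p-values were adjusted by Benjamini-Hochberg over all 22182 tested genes. Calls used the thresholds of the study's methods, 0.05 on the adjusted p and 0.58 on the absolute log2 fold change. Log2 ratios between the 4 genes used a pseudocount of 1 count and exact two-sided permutation tests, whose smallest p is 0.1. Library totals of 34200225 to 40919516 counts and the biological coefficient of variation of 9.94% set the precision. The fit was tested on simulated counts that had the same biological coefficient of variation for every gene. That test therefore does not bear on the precision for single genes.

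Alternatives were DESeq2 1.42.0 (size factors, Wald test), edgeR's exact test, unscaled totals, other filters on low counts, no fold threshold, other pseudocounts and lengths, a replicate block, and each library left out. Replicate numbers did not pair the libraries: deviations of same-numbered libraries correlated at 0.0077, 0.0064 and 0.0347.

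Sequences came from RefSeq TAIR10.1. Of 94112 junctions in the table, 98.9% had GT and AG ends on this sequence, so its coordinates fit those of the files, but only 34.0% of gene starts were the same. Primer sequences were read from the study's supplementary table.

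The 4 genes and the gene lists were chosen with earlier results of these data known. Genes named are the 4 themselves, *PRP40C*, their nearest neighbours, the 5 with the most similar profile, every called gene of the lists, each gene of the RAV, myb-like and target lists, and the largest change of each other list.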

Additional observations from a re-analysis of the deposited data

How the results depend on the processing

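*TEM1*, *TEM2* and *RAV1* were called higher under each of the 13 alternatives, and *EDF3* under none, so the number called stayed at 3. With a replicate block, the log2 fold changes were 1.12, 1.26 and 1.21 and -0.03 for *EDF3*, and 819 genes were called over the whole table. The block changed no call of the 4 genes, and the libraries share only a number. The sign of *EDF3* changed with single libraries left out, from -0.0903 to 0.0038, at 0.0013 without wild type replicate 2. The log2 ratio of *TEM2* to *RAV1* ran from -0.03 to 0.12 in the same way, and was -0.0327 without wild type replicate 2. Boundary reads of *TEM2* at the second boundary alone gave a difference of -0.123 per 1000 gene reads, from 1 read in all. The cause of these shifts was not tested. Over the whole table, 2485 genes were called with no fold threshold (1564 higher, 921 lower). Genes called lower numbered 292 by edgeR's exact test and 107 to 239 with single libraries left out. Depth limits *FT*, *TSF* and *ERF1*, which had 0 to 32 counts per library.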
